A study of Mus musculus with 2 samples.

Results

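The long early domains were 19 stretches of the autosomes of mouse embryonic stem cells, each at least 5 Mb long, in which every scored position had a score above 0. They were found by joining consecutive positions above 0 on chromosomes 1 to 19, ending a stretch at a value of 0 or less or at a gap over 300 kb. Of 1394 autosomal stretches of 1 sign that were 300 kb or longer, these were 19, beside 658 other early stretches and 717 late ones. Of the late ones, 48 were 5 Mb or longer. The domains were chosen by the score itself, so their sign, length and height are given as a description with no test.

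The cells were the 46C line of mouse embryonic stem cells, strain 129P2/Ola. Their medium contained leukemia inhibitory factor, which keeps such cells undifferentiated. RNA was not measured, so the cell type rests on its label. They had incorporated bromodeoxyuridine (BrdU, an analogue of thymidine) at 50 µM over 2 h. Sorting by DNA content then gave an early S phase and a late S phase fraction, with 1 library each. Labelled DNA from 10000 cells was immunoprecipitated, amplified over the whole genome and sequenced on the Ion Torrent platform, which reads bases as changes in pH. The authors combined both libraries into 1 score per position, smoothed over 300 kb, so each value below belongs to the pair and there is no replicate error to set beside it. Positive values were read as early from the order of the words in the deposited table's name. Its log base, scale and zero point are not stated in those sources that were used here, and the depth is unknown.

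Mammalian chromosomes replicate in domains. Clusters of origins fire together, so that long stretches of DNA are copied at about the same time in S phase. Early domains are known for many active genes, open chromatin and a place in the nuclear interior, and late domains for few genes and contact with the nuclear lamina. Promoters of broadly expressed genes often lie in CpG islands, where the CG dinucleotide is kept, while promoters of many tissue-restricted genes are poor in CG.

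To show what kind of promoter lay in which place, 7 promoters are printed from RefSeq (build GRCm38.p6), with every CG in capitals. Each window ran from 250 bases before to 50 after a start site, on the gene's strand. For Babam2 this site lay inside the gene as annotated, which begins at 31697978. The 7 promoters were chosen after their values were seen. Rpa2 (chr4:132768110-132768409, plus strand), a subunit of the protein that binds single-stranded DNA at replication forks, and Pou5f1 (chr17:35505782-35506081, plus strand), the pluripotency factor Oct4, lay in the high parts of their domains. The other 5 belonged to genes with their midpoint in a dip, an internal stretch of lower score that is defined below. They were Babam2 (chr5:31697800-31698099, plus strand), a member of a BRCA1-containing complex, and Cdc40 (chr10:40883094-40883393, minus strand), a splicing factor. The others were Cd300c (chr11:114960458-114960757, minus strand), a receptor of myeloid cells, H2-Eb1 (chr17:34305617-34305916, plus strand), an MHC class II chain, and Svs6 (chr2:164316501-164316800, plus strand), a seminal vesicle secretory protein.
Rpa2: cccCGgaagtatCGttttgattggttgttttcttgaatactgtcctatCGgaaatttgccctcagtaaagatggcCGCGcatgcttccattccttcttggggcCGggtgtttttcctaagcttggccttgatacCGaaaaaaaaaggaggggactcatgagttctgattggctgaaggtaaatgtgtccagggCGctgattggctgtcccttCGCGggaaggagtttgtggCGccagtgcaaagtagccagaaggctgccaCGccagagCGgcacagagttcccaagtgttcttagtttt
Pou5f1: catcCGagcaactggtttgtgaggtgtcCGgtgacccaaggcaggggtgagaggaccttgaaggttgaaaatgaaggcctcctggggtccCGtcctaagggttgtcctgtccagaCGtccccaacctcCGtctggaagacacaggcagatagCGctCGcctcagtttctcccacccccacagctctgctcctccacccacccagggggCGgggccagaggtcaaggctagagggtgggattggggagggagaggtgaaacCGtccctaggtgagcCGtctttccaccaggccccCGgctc
Babam2: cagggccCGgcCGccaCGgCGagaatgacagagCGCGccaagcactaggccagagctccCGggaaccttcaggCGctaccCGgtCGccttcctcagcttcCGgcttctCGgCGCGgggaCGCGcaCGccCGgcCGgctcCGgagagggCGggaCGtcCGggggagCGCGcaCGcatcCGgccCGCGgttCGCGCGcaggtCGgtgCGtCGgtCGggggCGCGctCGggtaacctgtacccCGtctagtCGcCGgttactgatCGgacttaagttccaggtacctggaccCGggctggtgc
Cdc40: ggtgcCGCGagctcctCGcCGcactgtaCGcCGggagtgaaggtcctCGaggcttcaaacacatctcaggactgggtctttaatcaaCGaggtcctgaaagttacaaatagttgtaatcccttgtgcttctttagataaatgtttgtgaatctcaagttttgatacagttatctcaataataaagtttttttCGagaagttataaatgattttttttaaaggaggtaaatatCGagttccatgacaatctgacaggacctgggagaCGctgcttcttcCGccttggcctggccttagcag
Cd300c: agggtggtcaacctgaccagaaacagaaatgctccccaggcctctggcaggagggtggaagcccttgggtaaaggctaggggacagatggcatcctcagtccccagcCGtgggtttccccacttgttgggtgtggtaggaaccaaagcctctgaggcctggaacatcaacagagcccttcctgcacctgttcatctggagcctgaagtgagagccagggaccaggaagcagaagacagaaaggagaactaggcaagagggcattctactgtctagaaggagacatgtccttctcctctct
H2-Eb1: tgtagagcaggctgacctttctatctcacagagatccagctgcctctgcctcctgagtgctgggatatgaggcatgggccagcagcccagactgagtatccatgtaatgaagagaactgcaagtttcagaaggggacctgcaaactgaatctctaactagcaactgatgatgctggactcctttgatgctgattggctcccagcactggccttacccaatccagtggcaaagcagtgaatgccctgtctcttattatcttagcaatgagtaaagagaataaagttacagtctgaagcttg
Svs6: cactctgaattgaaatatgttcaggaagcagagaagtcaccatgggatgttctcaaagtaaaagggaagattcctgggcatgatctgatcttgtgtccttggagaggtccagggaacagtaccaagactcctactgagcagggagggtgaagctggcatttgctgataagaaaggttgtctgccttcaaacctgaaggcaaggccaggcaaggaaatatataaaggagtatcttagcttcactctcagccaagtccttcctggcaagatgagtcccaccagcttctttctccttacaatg

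The promoters of these genes with midpoints in dips were of both kinds. Those of Babam2 and Cdc40 held 44 and 12 CG, at 1.12 and 0.84 of the number expected from their C and G content. That of Cd300c held 1, and those of H2-Eb1 and Svs6 held 0. The Babam2 window lay before the start of its dip, at 31826044. The windows of Cdc40, Cd300c, H2-Eb1 and Svs6 lay inside their dips. In the high parts, Rpa2 had 13 CG (0.69 of the expected number) and Pou5f1 had 11 (0.37). CG reads the same on both strands. Of all 32851 promoter windows of this length, 94.6% held at least 1 CG, with a median of 7. At the gene midpoints the score was 0.66 for Babam2, 0.09 for Cdc40, 0.71 for Cd300c, 0.59 for H2-Eb1 and 0.71 for Svs6. Rpa2 stood at 1.84 and Pou5f1 at 1.58.

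The domains lay on 11 of the 19 autosomes, with 4 on chromosome 11, 3 each on chromosomes 2 and 5, 2 on chromosome 15, and 1 each on chromosomes 1, 4, 7, 8, 9, 10 and 17. They covered 134.9 Mb, which was 5.62% of the scored autosomal length. Their lengths ran from 5.43 to 10.9 Mb with a median of 6.56 Mb. On the 8 chromosomes without one (3, 6, 12, 13, 14, 16, 18 and 19) the longest early stretch was between 3.46 Mb, on chromosome 18, and 4.88 Mb, on chromosome 6. The shortest member ran from 68670394 to 74098251 on chromosome 2 (5.43 Mb, median score 1.21). The longest stretch to fall short ran from 154063840 to 158968755 on the same chromosome (4.90 Mb, median 1.52). The stretch just outside the limit thus had the higher median. By their midpoints, 14 of the 19 lay past the middle of the scored part of their chromosome, counted from its first position. The same share was not computed for the other early stretches, and several members share a chromosome. No preference for a place can therefore be read from this count.

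**Figure D1:**
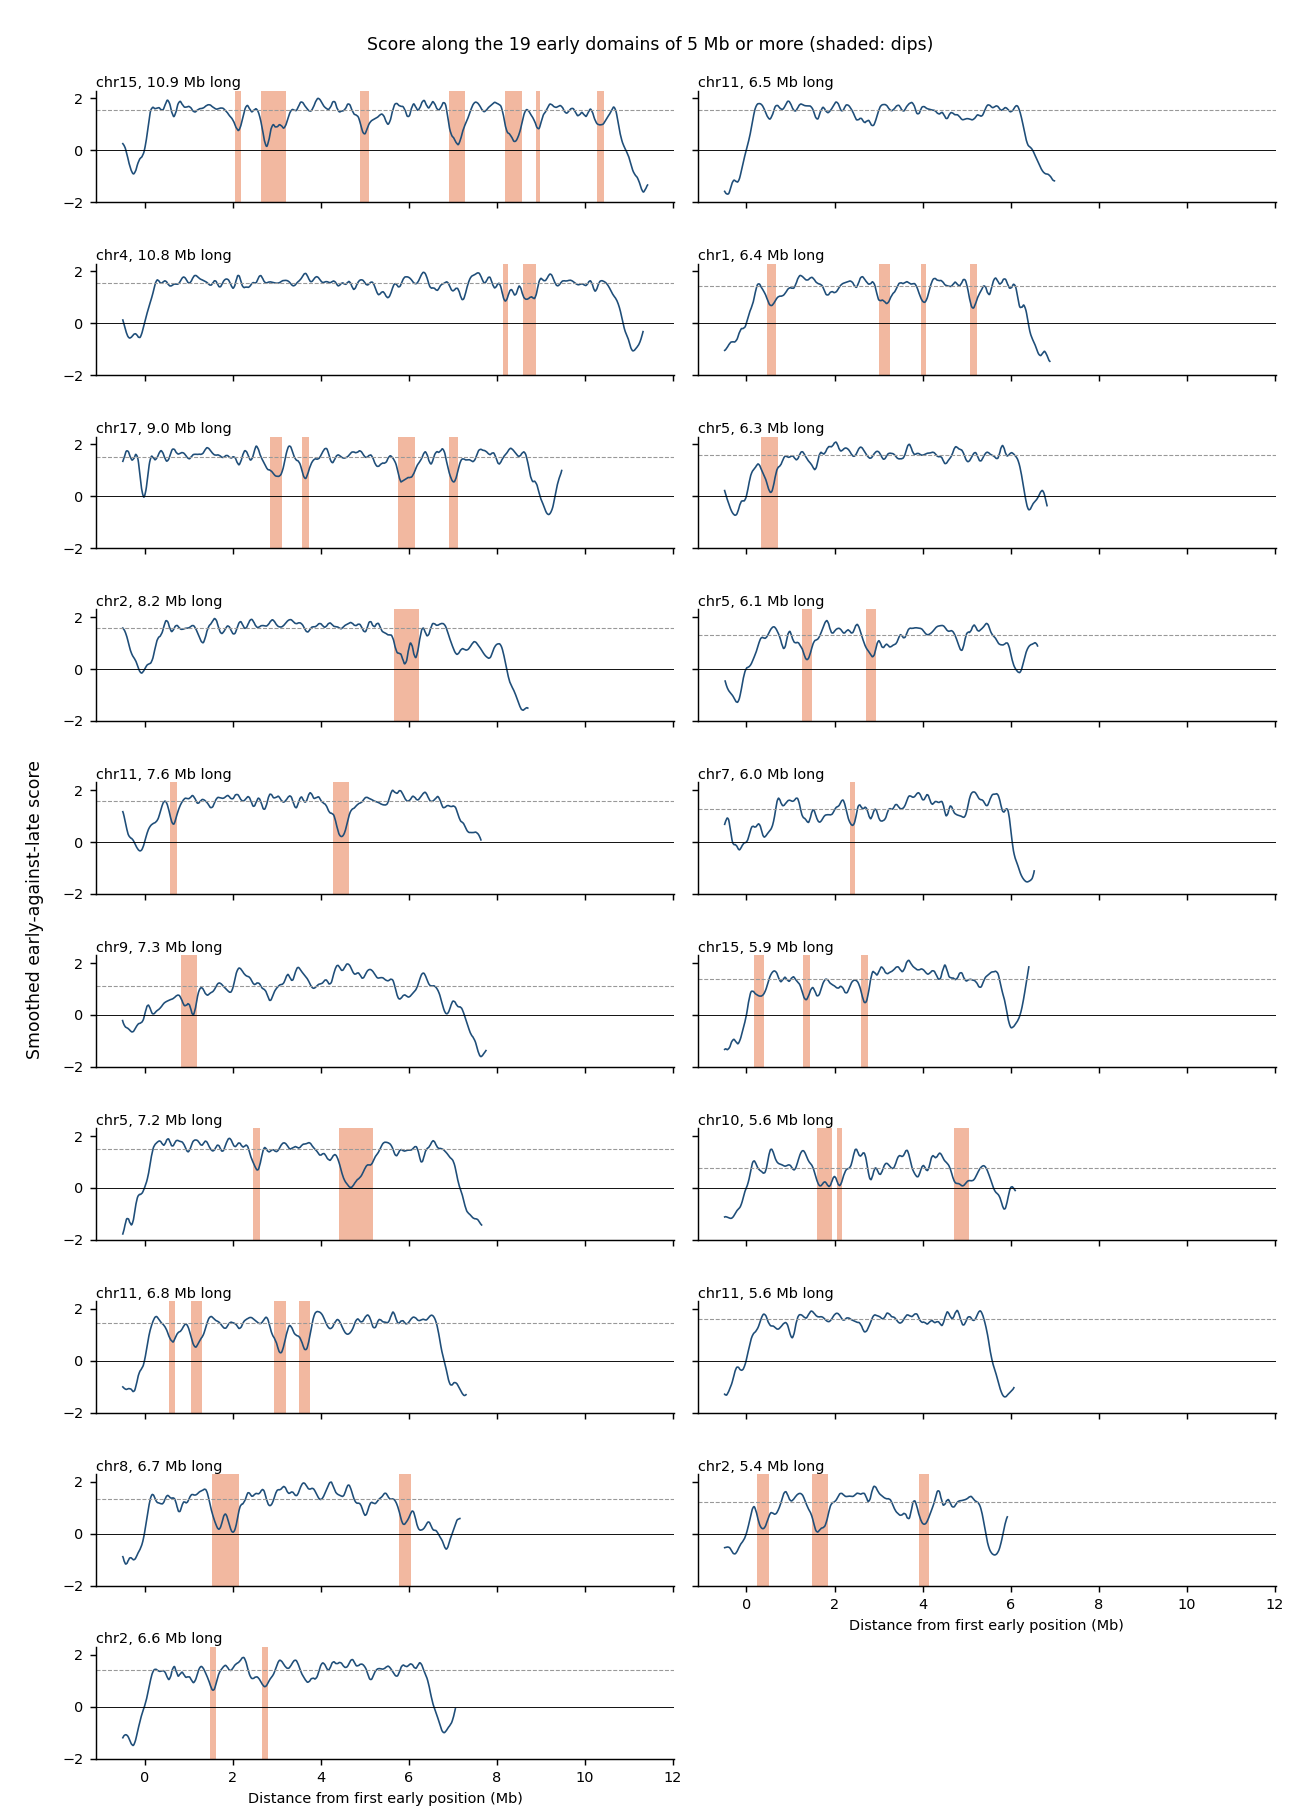
Score along each of the 19 domains, ordered by length down the left and then the right column, with 500 kb on either side where the chromosome goes on. The x axis is the distance from the first early position in Mb and the y axis the smoothed early-against-late score. The dashed line is the domain median, the solid line is 0 and shaded stretches are dips. Most domains are plateaus near 1.5 cut by narrow dips, while the domain on chromosome 10 stays lower, with a median of 0.78.

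Within a domain the score formed a plateau. Over all 22479 positions the median was 1.45, against 1.01 in the other early stretches and -1.14 in the late ones. Split by length, the other early stretches had medians of 1.31 (2 to 5 Mb), 0.98 (1 to 2 Mb) and 0.67 (0.3 to 1 Mb). The next shorter class was thus nearly as high as the long domains. Domain medians ran from 0.78 to 1.60, and 8 of the 19 were above 1.5. The highest median belonged to the domain from 93805769 to 99383359 on chromosome 11, where 94.3% of positions were above 1. The lowest belonged to the domain from 39002659 to 44609917 on chromosome 10, where 28.0% were. A domain on chromosome 9 (60663447 to 67918587) was the next lowest, with a median of 1.12 and 58.6% of positions above 1. The single highest position, at 2.11, was in the domain from 95605141 to 101527498 on chromosome 15. It lay near Fam186b, whose midpoint score was the highest of any gene in the set. The unbroken sign hid uneven heights. At a limit of 0.25 in place of 0, 13 of the 19 domains still held a piece of 5 Mb or more, at 0.5 there were 10, and at 1 there were 3.

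The edges were steep on the scale of the smoothing. Of 38 edges, 37 were sign changes and 1 was the end of the scored part of chromosome 11, reached by the domain from 114321787 to 121957529. Over the 37 edges the median score was 0.36 at 50 kb inside, 1.01 at 150 kb inside and 1.45 at 300 kb inside. Outside it was -0.24 at 50 kb and -0.90 at 300 kb. A smoothing window of 300 kb spreads a sharp step over a distance of that order, so the true steepness cannot be read from these values. The late stretches next to the domains were mostly short. There were 35 of them, 2 of which touched a long early domain on each side, and their lengths ran from 0.0235 to 4.48 Mb. Of the 35, 22 were under 1 Mb, 6 were under 300 kb, and none was among the 48 late stretches of 5 Mb or more. As only 48 of all 717 late stretches of 300 kb or longer were that long, none among 35 is not far from that share. The share of all late stretches under 1 Mb was not computed. The shortest of the 35, beside the domain on chromosome 17, reached only -0.035.

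**Figure D2:**
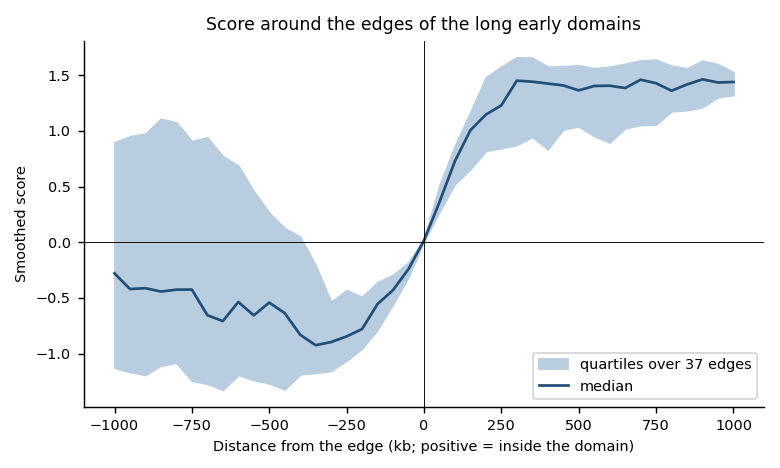
Score around the 37 edges that were sign changes. The x axis is the distance from the edge in kb, with positive values inside the domain, and the y axis the smoothed score. The line is the median over edges and the band spans the quartiles. The median passes 1 at 150 kb inside and lies at -0.90 at 300 kb outside.

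Several edges fell inside a gene cluster. On chromosome 11, Krt28, an inner root sheath keratin, was the last gene inside (0.11) and its neighbour Krt10, a keratin of the epidermis, the first outside (-0.025). On chromosome 7 the olfactory receptor genes Olfr555 (0.081) and Olfr556 (-0.066) stood on either side. On chromosome 17 the MHC class I genes H2-M10.2 (0.12) and H2-M10.1 (-0.11) did so. All 3 pairs were within 0.25 of 0, so a small shift of the zero point would move these edges. The nearest named protein-coding gene outside scored above 0 at 11 of the 37 edges, as Matn1 (1.15), a cartilage matrix gene, did on chromosome 4. At other edges it was well inside late DNA, as were Sdk1 (-1.48), a synaptic adhesion gene on chromosome 5, Cdh13 (-0.87), a cadherin gene on chromosome 8, and Ptprt (-1.39), a receptor phosphatase gene on chromosome 2.

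The domains were rich in genes. Of 20308 autosomal protein-coding genes with a score, 2561 had their midpoint inside, which is the background share of 12.6% for every count of genes inside given here. Among all autosomal protein-coding genes 74.4% had a score above 0. Gene density was 18.99 protein-coding genes per Mb, against 18.7 in early stretches of 2 to 5 Mb, 13.6 in those of 1 to 2 Mb, 11.2 in those of 0.3 to 1 Mb and 3.56 in late stretches. The long domains and the next shorter class thus differed little in density, and the early stretches under 2 Mb were lower. Single domains ran from 8.92 genes per Mb on chromosome 10 to 29.3 on chromosome 17, and 16 of the 19 were above 15. The other 2 sparse ones were the shortest member, on chromosome 2 (9.03), and the domain on chromosome 9 (10.8). These 3 also had the 3 lowest median scores. At their midpoints 1452 of the 2561 genes (56.7%) scored above 1.5, 2246 (87.7%) above 1 and 75 (2.93%) under 0.5. The domains also held 1213 long non-coding RNA genes, 158 microRNA genes and 502 pseudogenes.

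The domains held some genes of DNA replication, protein synthesis and pluripotency. Of 39 genes of DNA replication 7 were inside, from Mcm7 (1.28), a subunit of the replicative helicase, to Rpa1 (1.85), the largest subunit of the same complex as Rpa2. Between them were Cdt1 (1.56), which loads the helicase, Cdc6 (1.62), its partner in loading, Gins2 (1.66), a part of the active helicase, and Rfc2 (1.83), a subunit of the clamp loader. That is 17.9% of the list. Of 81 cytosolic ribosomal protein genes 18 were inside (22.2%), spread over 11 domains, from Rps3 (0.98) to Rpl4 (1.80). Of 75 mitochondrial ribosomal protein genes 11 were inside (14.7%), from Mrps2 (1.38) to Mrpl48 (1.83). Of 25 pluripotency genes 5 were inside (20.0%), and besides Pou5f1 these were Tbx3 (1.24), Lin28a (1.44), Nr5a2 (1.51) and Sall4 (1.65). Tbx3, Nr5a2 and Sall4 encode transcription factors and Lin28a an RNA-binding protein. Of 19 housekeeping genes 2 were inside, among them the tubulin gene Tuba1b (1.72). Of the 43 members of these 5 lists inside the domains 0 lay in a dip, where 5.62% of all domain genes did. At these numbers 0 is not far from that share, and the 9 potassium channel and 12 Trim genes inside also had 0 in dips.

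Developmental genes were present too. The whole Hoxb cluster of 10 homeobox genes, which pattern the body axis, lay in the domain from 93805769 to 99383359 on chromosome 11, with scores from 1.48 (Hoxb1) to 1.58 (Hoxb13). No other Hox gene of the 39 was inside a long domain, though all 39 scored above 0. Of 19 Wnt ligand genes 5 were inside, from Wnt7b (1.46) to Wnt10b (1.62), and Wnt1 lay beside Wnt10b at 1.60. The homeobox genes Dlx1 (1.70) and Dlx2 (1.77) were the highest genes of the shortest member, on chromosome 2. Phox2a (1.92), which specifies autonomic neurons, was the highest gene of the domain on chromosome 7. Slc12a5 (1.89), the potassium-chloride cotransporter of neurons, was the highest of the domain from 162723473 to 169284152 on chromosome 2. Many of these genes act mainly in tissues that arise later in development.

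The highest genes of other domains were of many kinds. Mdh2 (1.91), the mitochondrial malate dehydrogenase, was highest in the domain from 133857546 to 141013874 on chromosome 5. Khk (1.87), which phosphorylates fructose, led the one from 29103822 to 35212741 on that chromosome. Erp29 (2.09), an endoplasmic reticulum chaperone, led the one from 119420269 to 125745173. On chromosome 8, between 119290492 and 125954161, Gas8 (1.99), a regulator of dynein in motile cilia, was highest. Clic4 (1.91), an intracellular channel protein, led the domain on chromosome 4, and Cilp (1.97), a cartilage protein, led the one on chromosome 9. Several domains had their lowest gene at an edge. Examples are Pigr (0.010), the receptor that carries IgA across epithelia, on chromosome 1 at the start of the domain from 130836720 to 137230332, and Nog (0.19), a BMP antagonist, on chromosome 11 near the end of the domain from 82529859 to 89326626.

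Sensory receptor, protocadherin and kallikrein genes were mostly elsewhere. Of 1103 olfactory receptor genes 31 were inside (2.81%), and none of 289 vomeronasal receptor genes, 67 protocadherin genes or 27 kallikrein genes was. Of these, 200 olfactory, 50 vomeronasal, 27 protocadherin and 19 kallikrein genes did score above 0. Of the olfactory genes above 0, 15.5% were inside a long domain, close to the 17.0% of all protein-coding genes above 0. None of 216 genes of 500 kb or more lay inside, and 18 of the 216 scored above 0. At the other extreme 24 of 35 H2 histocompatibility genes (68.6%) were inside, all in the domain on chromosome 17. This count is 1 locus and not 24 separate cases. The loci of the other families were not counted, so their genes may not be separate cases either. Solute carriers were close to the background, with 56 of 376 inside (14.9%), as were zinc finger genes named Zfp, with 41 of 381 (10.8%).

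Dips were defined as internal stretches of at least 100 kb whose score was more than 0.5 below the domain's median. There were 44, in 17 of the 19 domains, with lengths from 103 to 764 kb and a median of 227 kb. They made up 8.63% of the total length. Both domains without a dip were on chromosome 11, from 74341588 to 80839491, with Rpa1, and the Hoxb domain. The lowest score within a dip ran from 0.010 to 0.98, and in 7 dips it was under 0.1. As 31 of the 44 were shorter than the 300 kb smoothing, their true depth may be larger than the score shows, and this was not tested. Long domains carried more dips per length than shorter ones, with 3.26 per 10 Mb, against 2.49 in early stretches of 2 to 5 Mb and 0.892 in those of 1 to 2 Mb. A dip that reaches 0 splits a stretch, and a short stretch has less room between its edges, so these rates depend on the rule that made the classes.

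**Figure D3:**
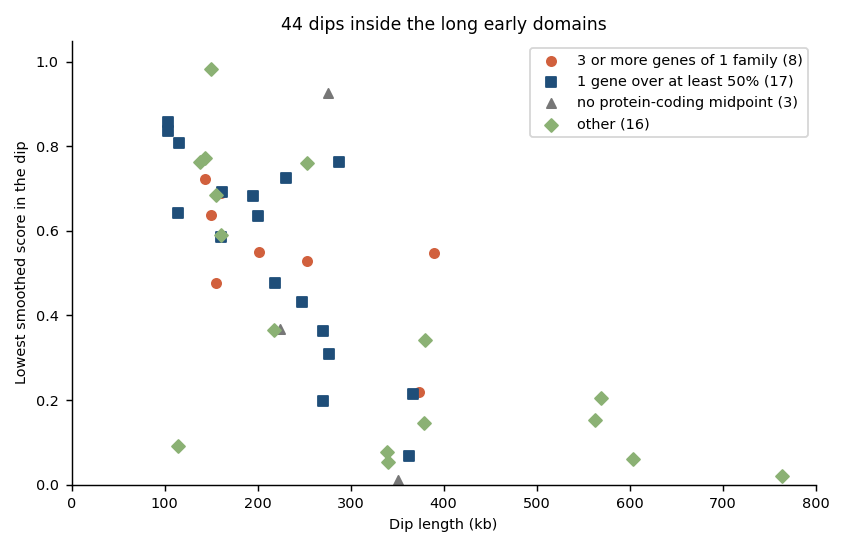
Length and lowest score of the 44 dips. The x axis is the length of the dip in kb and the y axis its lowest smoothed score. Symbols give what lies in the dip, and the number of dips of each kind is in the legend. The dip of 764 kb on chromosome 5 is the longest, and 7 dips of several kinds reach below 0.1.

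Sorted by their content, a sorting made after the values were seen, the dips were of 4 kinds. In 17, a single gene covered at least 50% of the dip. In 8, at least 3 genes of 1 family lay inside. In 3, no protein-coding gene had its midpoint inside, and 16 were of none of these kinds.

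The dips over a single gene had a median lowest score of 0.64, and their genes spanned 87.7 to 473 kb. Rbfox3, which encodes the neuronal splicing factor NeuN and spans 422 kb, covered 84.8% of a dip on chromosome 11 that fell to 0.21 in a domain of median 1.58. Bcas3, which spans 473 kb and encodes a cytoskeletal protein, covered all of a dip with a lowest score of 0.31. Brip1, a helicase of DNA crosslink repair, covered 57.8% of the next dip along, with a lowest score of 0.43. Myo3b, an unconventional myosin of 390 kb, covered 76.0% of a dip with a lowest score of 0.066 in the shortest member. Beside it in that dip was Sp5 (0.41), a transcription factor under Wnt control. Disc1, a scaffold protein of neurons, covered 70.5% of a dip with a lowest score of 0.36. Babam2 filled a dip whose lowest score was 0.48, and its CG-rich promoter, printed above, lay outside that dip. Pax7, a transcription factor of muscle stem cells, covered 73.5% of the lowest dip of the chromosome 4 domain, which still stood at 0.86.

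Long genes made up a larger share of the genes in dips. Genes of 200 kb or more, which are 4.64% of autosomal protein-coding genes, were 13 of 144 genes in dips (9.03%), against 25 of 2327 (1.07%) in the domains outside dips and edge parts. Edge parts are the end stretches that lie more than 0.5 below the domain median. Seen from the genes, 13 of 44 long genes (29.5%) lay in a dip, against 131 of 2517 shorter genes (5.20%). Another 6 long genes lay in edge parts, with a median of 0.48, and the 25 in the rest had a median of 1.40. Among these, Smg6, a nuclease of nonsense-mediated decay, stood at 1.73, Msi2, an RNA-binding protein whose gene spans 379 kb, at 1.49, and Nav1, a neuronal microtubule protein, at 1.57.

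The family dips held genes of immunity, secretion, detoxification and smell. In the MHC, the class II genes H2-Ob (0.90), H2-Ab1 (0.78), H2-Aa (0.70), H2-Eb1 (0.59) and H2-Eb2 (0.55) lay in a dip of 201 kb, between 34242309 and 34443636 on chromosome 17, with Btnl2 (0.57), a regulator of T cells, beside them. Other genes of the class II pathway stood higher in the same cluster. They were H2-DMa (1.71), which helps to load class II molecules with peptide, and H2-Oa (1.82), the partner chain of H2-Ob in a modulator of H2-DM. The class I gene H2-K1 was at 1.69. The 5 genes in the dip ranged from 0.55 to 0.90 and the other 6 H2 genes of the cluster from 1.56 to 1.82. Dips were defined by a low score, so the lower scores inside follow from the rule and are no separate result. Another dip of that domain, with a lowest score of 0.55, held olfactory receptor and zinc finger genes, but it also held a gap of 141 kb without scored positions. This was the only dip with a gap over 100 kb.

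Elsewhere, 8 of 11 Cd300 genes, receptors of myeloid cells, lay in a dip on chromosome 11, and the family's median was 0.82. All 6 Svs genes, for seminal vesicle proteins, lay in a dip on chromosome 2, with scores from 0.64 to 0.82. Wfdc15b (0.81), a protease inhibitor gene, was in the same dip, while the 10 clustered Wfdc genes outside it ranged from 1.40 to 1.59. Of 8 Cyp2d genes, for drug-metabolising enzymes, 5 lay in a dip on chromosome 15 that fell to 0.22 at Cyp2d34, while Cyp2d22 stood at 1.30. Of 8 Slfn genes 3, and of 5 Ccl chemokine genes 3, lay in dips of the same domain on chromosome 11. Ccl3 and Ccl4 stood at 0.59 and 0.58, and Ccl5 at 1.25. The Ccl dip also held Wfdc17 (0.54), Wfdc18 (0.55) and Wfdc21 (0.68).

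Clustered families varied widely and mostly lay below the other genes of the domains. Counting groups of at least 5 genes of 1 symbol root spaced at most 200 kb apart, there were 21 families with 168 genes. Of these, 14 had a median of 1 or more and 7 a median under 1. Only 3 had a median above 1.54, the median over all genes of the domains. Padi genes, for enzymes that turn arginine into citrulline, had a median of 1.74, and the Ly6g genes of the MHC 1.73. Oas genes, which make the antiviral signal 2-5A, had a median of 1.31. Both keratin groups were low, with medians of 0.54 and 0.66, and lay mostly in edge parts, with 5 of 6 and 6 of 7 genes.

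**Figure D4:**
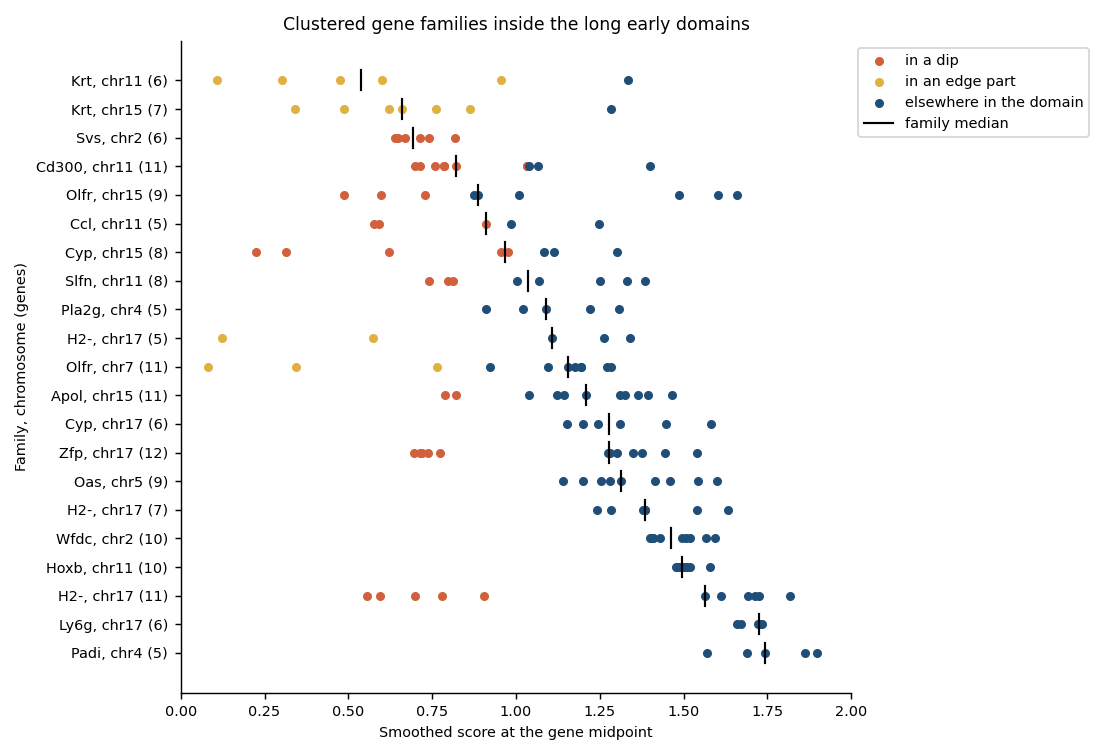
Score of each gene in the 21 clustered families. Each row is a family, named with its chromosome and number of genes and ordered by its median, and the x axis is the smoothed score at the gene's midpoint. Colours give the place of the gene in its domain and the vertical tick is the family median. In the H2 group of 11, 5 genes are in a dip, and all 6 Svs genes are in a dip. Genes in dips are low by the definition of a dip.

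The promoters of most of these families were poor in CG, in high and in low families. For 15 of the 21 families at least 80% of the genes matched a promoter window, and 9 of the 15 had no window with more than 0.6 of the expected CG number. In all 11 of 109 windows passed that limit. Of the autosomal protein-coding genes with a window 50.3% did, but only 79.96% had one, so this share is given without a comparison. The Padi and Ly6g families, the highest, had 1 of 5 and 0 of 5 windows above it, and the Svs and Cd300 families, among the lowest, 0 of 6 and 0 of 10. For the dips and the domains as sets a comparison is void for the same reason, since 79.2% of the genes in dips and 79.9% of those in the domains had a window, under the 80% that was required. Of the single domains 13 reached it, and in them between 44.4% and 75.6% of windows passed the limit.

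The remaining deep dips held few genes or genes of many kinds. The lowest score, 0.010, was in a dip on chromosome 9 from 61497117 to 61848134, which held no protein-coding midpoint and fell 1.11 below its domain's median. The longest dip, from 138270775 to 139034615 on chromosome 5 (764 kb, lowest score 0.019), had the largest drop of the 44, at 1.48. It held the zinc finger genes Zfp157 (0.16) and Zfp68 (0.14), the secreted kinase gene Fam20c (0.48) and, at its end, the growth factor gene Pdgfa (0.88). On chromosome 15 a dip with a lowest score of 0.15 held 16 protein-coding genes of many kinds. Its lowest was Ncf4 (0.17), a part of the phagocyte oxidase, and Csf2rb2 (0.26) and Csf2rb (0.62), receptors for interleukin 3 and related cytokines, lay beside it with the calcium-binding protein gene Pvalb (0.48). Toward its end were Mpst (0.99), a sulfurtransferase, and Sstr3 (0.98), a somatostatin receptor.

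Other such dips held single transcription factor genes or small groups of them. The forkhead genes Foxf1 (0.67), Foxc2 (0.76) and Foxl1 (0.76) were in a dip of 604 kb on chromosome 8 that fell to 0.060. Tbx5 (0.72), for heart and forelimb, was the only protein-coding gene with its midpoint in a dip on chromosome 5 that fell to 0.15. Tbx3 (1.24), the neighbour of Tbx5 in the genome, lay outside that dip. The related genes Tbx2 (1.36) and Tbx4 (1.16), in a domain on chromosome 11, were in no dip. Pbx3 (0.63), a partner of Hox proteins, and Mvb12b (0.64) were at either end of a dip with a lowest score of 0.20. The domain on chromosome 10 had the lowest median. There Cdc40 (0.09), Ddo (0.10), an oxidase of D-aspartate, and Wasf1 (0.11), an actin regulator, lay in a dip with a lowest score of 0.053. A gene took the score of the position nearest its midpoint, so no gene in a dip could score below the dip's lowest point.

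Dips held fewer genes per length than the rest of the same domains. Density was 12.4 protein-coding genes per Mb in dips, against 20.3 outside dips and edge parts. Edge parts had 10.2. The density in dips was lower in 15 of the 17 domains that had any. The exceptions were the domain on chromosome 2 with the Svs cluster, at 40.9 in dips, against 17.5 in the rest, and the domain on chromosome 10, at 10.1, against 8.72. The median spacing of scored positions was alike in dips (5.77 kb) and in the rest (5.76 kb). A median does not show gaps, and 5 dips held a gap over 30 kb. Among them were the Cd300 (40.7 kb), Cyp2d (40.3 kb) and Slfn (52.1 kb) dips. Gaps also lay outside dips, as at 117 kb in the domain from 133857546 to 141013874 on chromosome 5. Since the score defined the dips and both libraries stand behind every value, the difference in density is a description of this pair of libraries.

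**Figure D5:**
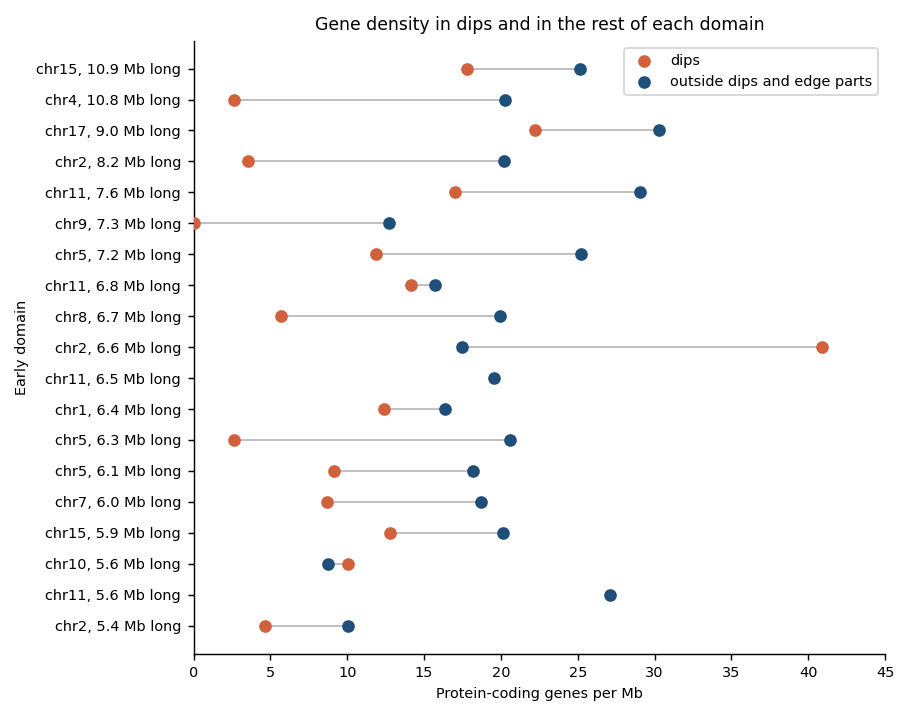
Protein-coding genes per Mb in the dips and outside dips and edge parts of each domain, with domains ordered by length from the top. A line joins the values of 1 domain. The value for dips lies left of the other in 15 of 17 domains, and both domains without dips are on chromosome 11.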

How the data were processed

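The samples were 1 early S phase and 1 late S phase library of BrdU-labelled DNA, with no replicates. Reads were aligned with Bowtie2 to mm10, per the submitters' processing notes. In the deposited table each position had 1 score, which the authors computed from both libraries and smoothed over 300 kb, per the file headers. The counting and scaling of reads, the log base and the zero point are not stated in the sources. Of 384798 positions 4 had no value. No column of per-sample values was left unused (0).

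Genes came from RefSeq (GRCm38.p6). A gene belonged to the stretch that held its midpoint and took the score nearest to it, within 100 kb. The table listed 363 genes outside the chromosome order, taken as scaffold genes, and they were left out. Promoter windows were counted for CG.

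The domains, gene lists and rules for naming genes were chosen with earlier results of these data known. Genes were named as the highest and lowest of a domain, as members of the lists, families and deepest dips, as long genes and as edge neighbours. Others (Wnt, Dlx, Tbx, Wfdc and H2 genes, Mpst, Sstr3, Btnl2, Wasf1 and the single genes of shallower dips) were added after their values were seen. Some genes that count in their lists are not reported here by name. Without replicates no test was made. The run and dip finders were tested on simulated profiles. Python 3.11.15, numpy 2.4.6, pandas 2.3.3 and matplotlib 3.10.9 were used. Alternatives changed the zero point, the minimum length, the gap, the dip limits and the gene assignment.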

Additional observations from a re-analysis of the deposited data

How the results depend on the processing

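The number and length of the domains depended on the zero point and the length limit, which are conventions. Moving the zero point to -0.30, the median of the autosomes, gave 32 domains of 235.3 Mb in all, against 19 of 134.9 Mb. A limit of 0.25 gave 85.5 Mb, and a limit of 0.5 gave 10 domains of 66.2 Mb. A minimum length of 4 Mb gave 41 domains of 233.6 Mb. Bridging late stretches under 300 kb gave 37 domains of 269.4 Mb. Minimum lengths of 6 Mb and other gaps gave between 15 and 20 domains. Gene density stayed between 18.0 and 20.4 protein-coding genes per Mb under every other definition of the domains, and counting all annotated genes gave 34.7. The number of dips was 69 at a depth of 0.25, 26 at 0.75 and 13 with a minimum of 300 kb, against 44. Dips held between 10.3 and 13.8 genes per Mb under these and the remaining alternatives. In each where both were computed this was below the density outside dips. The median score of the domains was 1.45 with 1 position per 300 kb, and their mean was 1.32. The unknown zero point, the smoothing and the lack of replicates limit every value. No paired analysis was possible because there was 1 library per fraction and no result came from a test.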

Other observations

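The X chromosome, which the choice of domains left out, had no early stretch of 5 Mb or more. Its longest ran from 150347296 to 153791340 (3.44 Mb, median 1.01).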
